A study of Mus musculus with 9 samples.

Results

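The zinc finger protein (Zfp) genes expressed in 4T1 cells, a mouse mammary carcinoma cell line, were described across 9 libraries of polyadenylated RNA. Members were chosen by their level: a gene counted if its symbol was Zfp followed by a number, Zfp36 left out, and if it reached 1 FPKM (fragments per kilobase of transcript, scaled to the mapped fragments of the library) or more in at least 3 of the 9 libraries. Of 24067 genes in the deposited table, 333 carried such a symbol and 243 met the threshold. The other 90 did not and are not called members. Each library carries 2 labels. By title there were 3 libraries of control 4T1, transfected with a control plasmid, 3 of clone 2 and 3 of clone 3, both stable clones selected with Zeocin after transfection of a plasmid for the microRNA miR-204-5p. The labels put miR-204-5p on average 150-fold above control in clone 2 and 525-fold above it in clone 3. By code, replicate 1 of each title was NTC, replicate 2 was C-20 and replicate 3 was C-26, and the labels do not spell these codes out. Each clone title is a single clone, so clone and miR-204-5p level cannot be told apart, and each pairing of a title with a code has 1 library. Nothing states that the libraries of a title came from separate cultures, so p-values measure the spread between these libraries, which may be technical. The 3 libraries of a title carry 3 different codes, so the spread within a title also holds any difference between the codes.

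Most Zfp genes code for DNA-binding proteins built from strings of C2H2 zinc fingers, small folds in which 2 cysteines and 2 histidines hold a zinc ion. A large and recently expanded group also carries a KRAB domain, which recruits the corepressor Trim28 (KAP1) and with it the histone methyltransferase Setdb1. Such KRAB zinc finger proteins are known for silencing retroelements and for keeping imprints, and their genes lie in clusters of near copies, many on mouse chromosomes 7, 13 and 17. Members without KRAB have varied roles, among them promoter binding, ubiquitin ligase activity and ribosome assembly. A pattern like the KRAB A box was found in the translated coding sequence of 118 members, called KRAB-like here, and not in the other 125. KRAB-like members held a median of 12 fingers and the others 7, with a range of 0 to 36 over all members. A finger was read in 236 members, and in 7 none matched the spacing searched.

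The stretches below show the finger that most of these genes share. Each is the coding sequence of the first finger of the usual spacing in its gene, 63 bases from a single exon (GENCODE M21, GRCm38, the assembly of mm10), 5′ to 3′ on the coding strand, with the codons of the 2 cysteines and 2 histidines in capitals. They were chosen from members that moved furthest down or up in clone 3, plus Zfp146, whose transcript is not low in GC. They lie at chr17:21587193-21587255 (Zfp948, plus strand), chr11:49215459-49215521 (Zfp62, plus), chr17:21463770-21463832 (Zfp51, plus), chr7:30162502-30162564 (Zfp146, minus), chr7:127235527-127235589 (Zfp553, plus), chr7:127253856-127253918 (Zfp771, plus) and chr7:5053096-5053158 (Zfp580, plus).
Zfp948: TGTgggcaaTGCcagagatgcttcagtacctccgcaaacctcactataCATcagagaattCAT
Zfp62: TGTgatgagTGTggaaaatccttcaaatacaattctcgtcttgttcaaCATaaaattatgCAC
Zfp51: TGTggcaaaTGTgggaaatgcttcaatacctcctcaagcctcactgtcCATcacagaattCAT
Zfp146: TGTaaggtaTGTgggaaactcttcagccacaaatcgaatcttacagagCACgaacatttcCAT
Zfp553: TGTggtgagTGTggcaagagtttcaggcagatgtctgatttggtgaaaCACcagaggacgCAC
Zfp771: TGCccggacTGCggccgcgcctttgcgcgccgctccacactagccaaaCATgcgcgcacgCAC
Zfp580: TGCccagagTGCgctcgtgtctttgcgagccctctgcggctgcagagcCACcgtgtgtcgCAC
The 4 capital codons recur at the same places, while GC content was 46.0% in the stretch of Zfp948, 33.3% in Zfp62, 44.4% in Zfp51, 41.3% in Zfp146, 50.8% in Zfp553, 71.4% in Zfp771 and 66.7% in Zfp580. These values are of 1 finger a gene and do not follow the transcripts throughout: the stretch of Zfp146 lies below those of Zfp948 and Zfp51, although its transcript has the higher GC content. For the overexpressed microRNA itself, the mature sequence (RefSeq, GRCm38.p6, chr19:22750610-22750631, plus strand, within an intron of Trpm3) is shown with its seed, bases 2 to 8, in capitals.
mmu-miR-204-5p: uUCCCUUUgucauccuaugccu

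Across the series, 14883 to 18283 genes were above 0 in a library and the sum of FPKM was 439018 to 560092. No read counts entered the work, and how deeply each library was sequenced is not known from FPKM. All 8 markers of carcinoma epithelium passed the level threshold, led by Krt18, and their summed FPKM ran from 387 to 1185 in control, 886 to 1377 in clone 2 and 1225 to 1592 in clone 3. Of leukocyte markers none passed, their sum stayed at or below 0.168 FPKM and Cd3e was listed at 0. Of 5 endothelial markers 1 (Flt1) passed and of 6 fibroblast markers 1 (Pdgfra), with list sums of at most 5.04 and 8.06 FPKM. The clone 3 libraries stood apart from the other 6 in the members' values, as given next.

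Most members were expressed at low levels: the median of their mean FPKM was 4.00, against 12.4 over all 10783 genes that passed the same threshold, and the range was 0.672 to 97.6. Of the 243 members, 161 reached 1 FPKM in all 9 libraries. A further 47 reached it in no clone 3 library, and 37 of these reached it in all 6 others, whereas 0 members reached it in clone 3 libraries only. The number at 1 FPKM or more was 238 ± 6.08 (SD, n = 3) in control, 234 ± 4.51 in clone 2 and 181 ± 12.9 in clone 3, with 196, 176 and 172 in the single clone 3 libraries (NTC, C-20 and C-26, the order used for values throughout). Since the threshold itself uses these levels, the counts describe the members and test nothing. Just inside the threshold lay Zfp658, Zfp784 and Zfp329, with a third-highest value of 1.04, 1.07 and 1.08 FPKM, and just outside lay Zfp11, Zfp563 and Zfp169, with 0.981, 0.951 and 0.920.

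The lower level in clone 3 was seen mostly in KRAB-like members. Their median level was 3.18 ± 0.37 FPKM (SD, n = 3) in control, 2.64 ± 0.013 in clone 2 and 1.24 ± 0.23 in clone 3. That of the other members was 6.27 ± 0.31, 6.77 ± 0.36 and 5.97 ± 0.66 FPKM. Of the 118 KRAB-like members 40 reached 1 FPKM in no clone 3 library, beside 7 of the other 125. These met the threshold through control and clone 2, so the values of this paragraph describe in part how members were chosen. On the log2(FPKM + 1) scale, used for all differences here, the median deviation of KRAB-like members from their own mean was −0.23, −0.49 and −0.61 in the clone 3 libraries and 0.14 to 0.42 in the other 6. The groups do not overlap. Within clone 3 the NTC library stood nearest to the other titles.

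**Figure D1:**
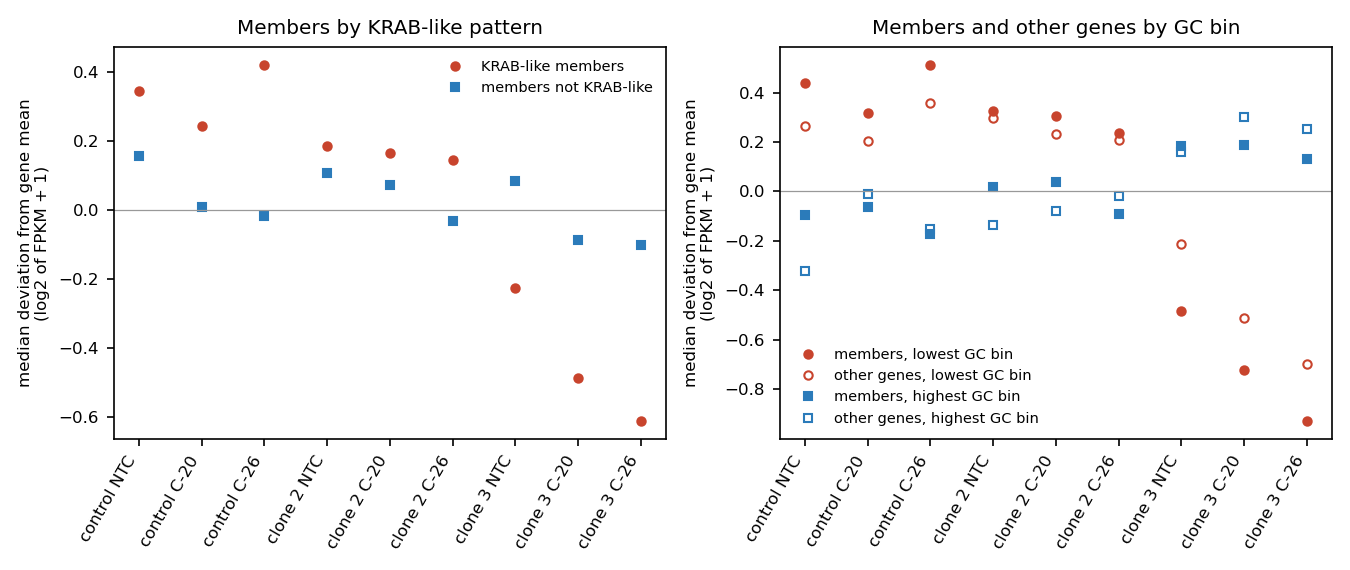
Median deviation from each gene's mean over the 9 libraries (vertical axis, log2 of FPKM + 1) per library (horizontal axis, title and code), for KRAB-like and other members (left) and for members and other tested genes in the lowest and highest of 5 equal bins of transcript GC content (right). KRAB-like members are below 0 in the 3 clone 3 libraries, and in the lowest bin both members and other genes are below 0 there.

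Between clone 3 and control, the comparison that bears on the highest miR-204-5p level, 85 members were lower and 5 higher (limma with a mean-variance trend, Benjamini-Hochberg adjusted p below 0.05 over all tested genes). The background over all 10783 tested genes was 13.2% lower and 7.44% higher, against 35.0% and 2.06% of members. Of these 85, 43 belong to the 47 members that reached 1 FPKM in no clone 3 library. Those 47 met the threshold through control and clone 2, where they are high, so their calls describe how they were chosen and the excess over the background is not read as a result. Among all tested genes 305 reached 1 FPKM in no clone 3 library, and 66.9% of them were lower. The median log2 change was −0.35 over members and 0.09 over all tested genes, and 168 members were below 0. Of the 118 KRAB-like members 65 were lower, 38 of them among those 47, and 0 higher (median −0.73), and of the other 125, 20 were lower and 5 higher (median −0.04). Clone 3 lay wholly below control, with no overlap of the 3 libraries each, in 110 members (45.3%, against 18.8% of all tested genes), and wholly above it in 26 (10.7% against 21.9%). Calls were also counted by mean level. Above a mean of 4.00 FPKM, the members' median, 29 of 121 members were lower (24%, beside 12.2% of 8675 tested genes), and at or below it 56 of 122 (45.9%, beside 17.2% of 2108). The group above 4.00 FPKM also holds members of those 47, such as Zfp51 and Zfp930. Its share is therefore not read as a result either.

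The change in clone 3 followed the GC content of the transcript, among members and among other genes alike. Members had a median transcript GC content of 46.2%, KRAB-like members 42.3% and the others 51.2%, against 50.2% over all tested genes. Across the 243 members the change had a Spearman correlation of 0.88 with GC content, and across 10249 other tested genes one of 0.68. These are correlations across genes of the same libraries, which are not independent replicates. In the lowest of 5 equal bins of GC content (33.1% to 44.4%), which held 104 members, 80 members were lower with a median of −1.18. In the same bin 50.9% of the 1995 other genes were lower, with a median of −0.71. Of the 243 members 47 met the threshold without clone 3, beside 305 of all 10783 tested genes. The larger fall of members than of other genes is therefore not read as a result. In the highest bin (56.0% to 72.8%) 0 of 39 members were lower and 5 were higher with a median of 0.32, beside a median of 0.40 and 18.1% higher among 2060 other genes. The 47 KRAB-like zinc finger genes with other names gave 40 lower and 0 higher (median −1.01, median GC content 40.1%). That is 85.1% lower, beside 13.2% of all tested genes. This list passed the same threshold at a median level of 1.49 FPKM, and how many did so without clone 3 was not counted. Its share is therefore not read as a result either. A change of the transcripts and an effect of GC content in library preparation or sequencing cannot be told apart here, because the GC trend sets all 3 clone 3 libraries apart. The part of base composition in the members' change was not tested beyond the corrected values below.

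**Figure D2:**
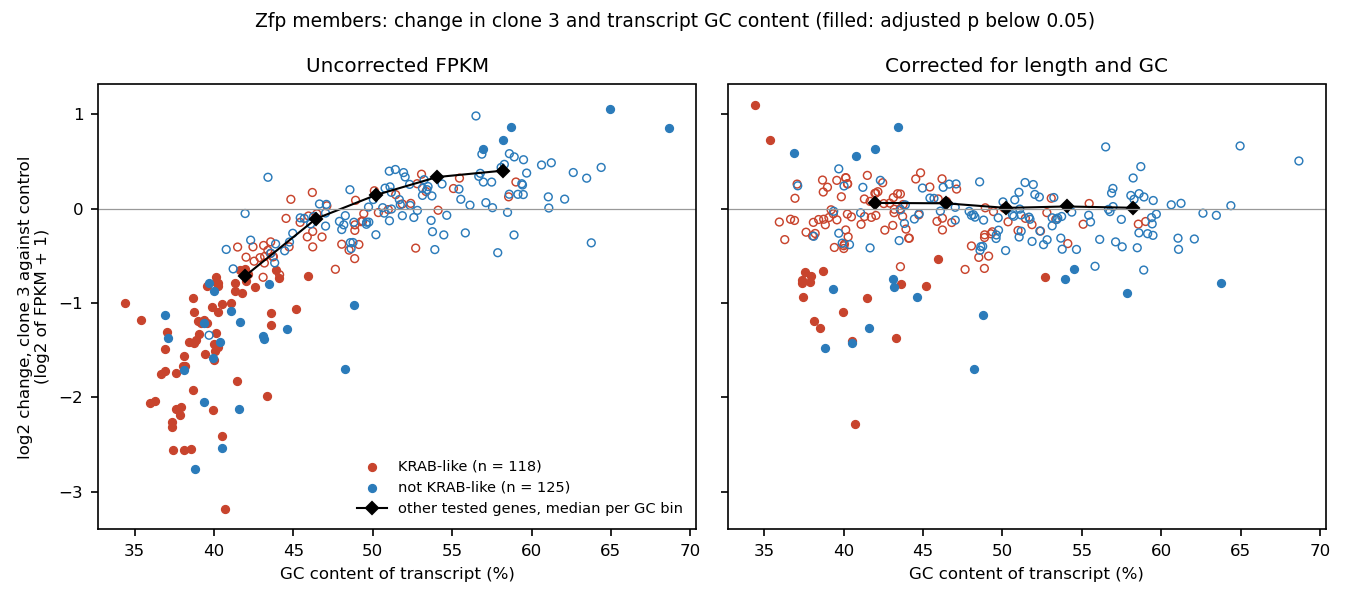
Log2 change of each of the 243 members between clone 3 and control (vertical axis) against the GC content of its transcript (horizontal axis, percent), before (left) and after (right) a correction for transcript length and GC content. Filled points passed limma at an adjusted p below 0.05, and diamonds are medians of the other tested genes per GC bin, which climb from −0.71 to 0.40 on the left and lie near 0 on the right.

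The KRAB-like members that fell furthest are coded on chromosomes 17, 8 and 12 and were at or below 1.83 FPKM in clone 3. Zfp51, Zfp930, Zfp386 and Zfp942, and Zfp292 further on, are among the 47 that met the threshold without clone 3, and their adjusted p is given with that limit. Zfp948 and Zfp81, and Zfp62 further on, reached 1 FPKM in only 1 clone 3 library. They too needed control or clone 2 to meet the threshold, and the same limit holds for them. Zfp948 held 17.4, 15.6 and 18 FPKM in control, 22.4, 12.5 and 10.5 in clone 2 and 1.83, 0.863 and 0.474 in clone 3. All clone 3 values lie below all others, a 16.1-fold difference of group means from control (log2 change −3.18 ± 0.29, adjusted p = 0.000157). In Zfp51 the levels were 7.32, 5.13 and 7.34 FPKM in control, 7.64, 6.27 and 5.99 in clone 2 and 0.442, 0.262 and 0.166 in clone 3, without overlap (log2 change −2.55 ± 0.18, adjusted p = 7.88e-05). Zfp81 was measured at 10.2, 7.84 and 10.1 FPKM in control, 10.8, 6.77 and 7.14 in clone 2 and 1.42, 0.641 and 0.359 in clone 3 (log2 change −2.56 ± 0.25, adjusted p = 0.000183). Again no clone 3 library reached the lowest of the other 6. Zfp930 had 10.0, 5.06 and 7.70 FPKM in control, 9.53, 6.19 and 4.39 in clone 2 and 0.735, 0.364 and 0.193 in clone 3, with all clone 3 values under 1 FPKM (log2 change −2.56 ± 0.29, adjusted p = 0.000321). For Zfp386 the values were 5.84, 8.34 and 10.5 FPKM in control, 4.99, 7.44 and 8.49 in clone 2 and 0.922, 0.787 and 0.411 in clone 3 (log2 change −2.41 ± 0.24, adjusted p = 0.000207). In this gene NTC was the lowest library in control and clone 2 but the highest in clone 3. Zfp942 showed 5.29, 5.63 and 8.06 FPKM in control, 6.37, 5.32 and 5.11 in clone 2 and 0.804, 0.412 and 0.208 in clone 3 (log2 change −2.31 ± 0.21, adjusted p = 0.000154), again without overlap. No specific role is given here for these 6.

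KRAB-like members with a known role were among those lower. Zfp445, which with Zfp57 keeps parental imprints in the mouse embryo, held 23.9, 24.5 and 28.6 FPKM in control, 21.6, 22.6 and 23.2 in clone 2 and 8.04, 4.73 and 4.91 in clone 3 (log2 change −1.98 ± 0.19, adjusted p = 0.000184). The clone 3 libraries are all far below the lowest of the others. Zfp809, which recognises the primer binding site of murine leukemia proviruses and silences them, held 9.82, 16.4 and 17.1 FPKM in control, 13.8, 12.6 and 13.5 in clone 2 and 8.04, 5.28 and 5.56 in clone 3. Clone 3 lies below all other libraries, while clone 2 lies within the range of control (log2 change −1.06 ± 0.23, adjusted p = 0.00970), and without clone 3 replicate 2 the adjusted p was 0.0505. Zfp568, a repressor of a placental Igf2 promoter, was not called: it had 5.93, 5.36 and 4.95 FPKM in control, 5.80, 4.40 and 4.11 in clone 2 and 7.55, 3.99 and 5.55 in clone 3 (log2 change 0.03 ± 0.21, adjusted p = 0.933), and the groups overlap. Zfp57 itself was below the threshold.

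**Figure D3:**
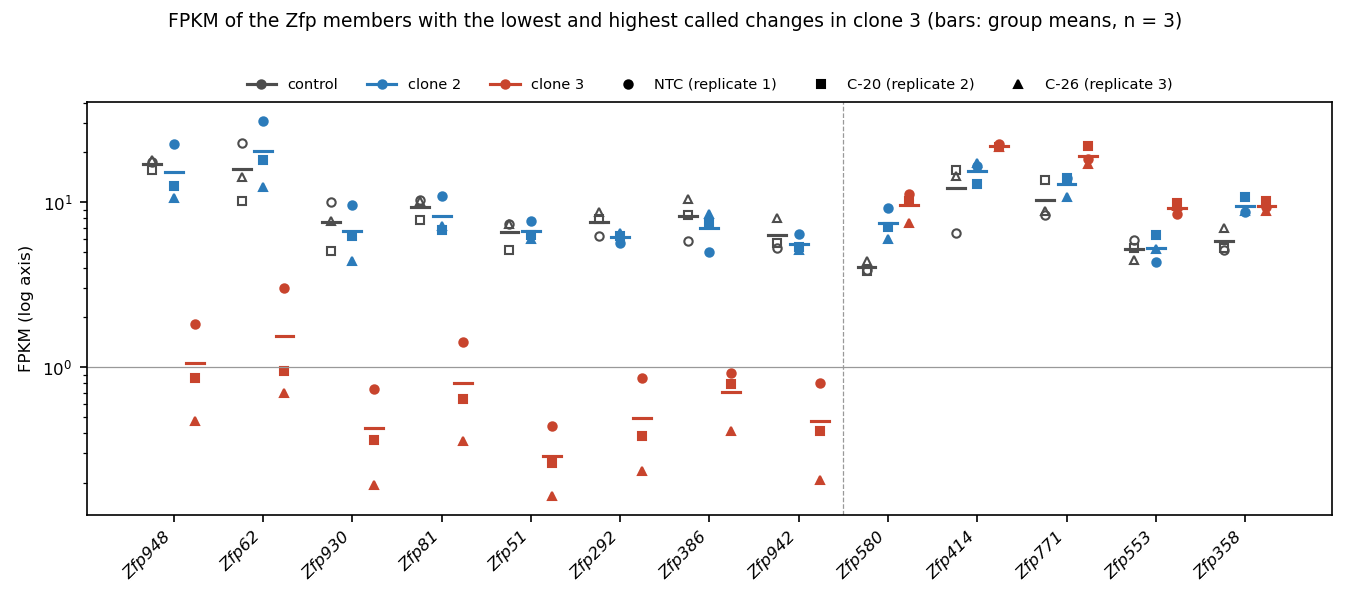
FPKM (vertical log axis) in each library of the 8 members with the lowest and the 5 with the highest called change between clone 3 and control; colours are titles, symbols are codes and bars are means of 3 libraries. Clone 3 points of the 8 on the left, from 0.166 to 3.00 FPKM, all lie below the other titles, and those of the 5 on the right, from 7.49 to 22.4 FPKM, lie above control.

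Of the 20 lower members without the KRAB-like pattern, some fell as far as the KRAB-like ones. Zfp62, with 25 fingers read in its coding sequence, held 22.9, 10.2 and 14.2 FPKM in control, 31.2, 18 and 12.4 in clone 2 and 3.0, 0.947 and 0.693 in clone 3. The NTC library was highest in each title, and no clone 3 value reached any other (log2 change −2.76 ± 0.41, adjusted p = 0.00144). Zfp292, a large protein, had 6.21, 7.94 and 8.68 FPKM in control, 5.62, 6.27 and 6.53 in clone 2 and 0.854, 0.384 and 0.235 in clone 3 (log2 change −2.54 ± 0.19, adjusted p = 9.96e-05), without overlap. Zfp281, a regulator of pluripotent stem cells, was at 5.47, 5.37 and 6.23 FPKM in control, 4.05, 5.16 and 5.27 in clone 2 and 2.26, 1.60 and 1.15 in clone 3 (log2 change −1.34 ± 0.19, adjusted p = 0.000991). Its clone 3 libraries are the lowest 3 of the 9. Zfp148, which binds GC-rich promoter elements, gave 13.2, 8.69 and 10.3 FPKM in control, 12.6, 12.5 and 9.67 in clone 2 and 4.87, 2.40 and 1.93 in clone 3 (log2 change −1.58 ± 0.26, adjusted p = 0.00277). Zfp451, a SUMO ligase, gave 31.3, 19.2 and 19.7 FPKM in control, 22.6, 23.1 and 19.5 in clone 2 and 14.8, 7.95 and 9.15 in clone 3 (log2 change −1.08 ± 0.25, adjusted p = 0.0138). Both lie lower in clone 3 in every library, though Zfp451 loses its call without clone 3 replicate 2 (adjusted p = 0.0669) or clone 3 replicate 3 (0.0630).

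The members that fell also included an abundant one, and 2 of average GC content. Zfp146, a protein that consists almost wholly of zinc fingers, ranked 8th of the members by mean level and has a transcript GC content of 48.8%. It held 49.6, 32 and 33.5 FPKM in control, 53.1, 44.6 and 35.1 in clone 2 and 25.4, 17.3 and 13.2 in clone 3 (log2 change −1.03 ± 0.26, adjusted p = 0.0216), so that the highest clone 3 library lies below the lowest control library. Without clone 3 replicate 2 or replicate 3 its adjusted p was 0.0799 and 0.0931. Zfp488, known from oligodendrocyte development and with a GC content of 48.2%, held 5.46, 5.59 and 5.78 FPKM in control, 2.79, 3.82 and 5.36 in clone 2 and 1.20, 1.04 and 0.861 in clone 3 (log2 change −1.70 ± 0.20, adjusted p = 0.000353). Its clone 3 values are tight and far below control, and clone 2 lies between.

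The 5 members that were higher in clone 3 were all GC-rich (57.0% to 68.7%) and none was KRAB-like. Zfp580 held 3.85, 3.82 and 4.41 FPKM in control, 9.25, 7.09 and 5.94 in clone 2 and 11.2, 10.1 and 7.49 in clone 3 (log2 change 1.06 ± 0.20, adjusted p = 0.00501). Clone 2 also lies above control in every library. Zfp771 was at 8.36, 13.6 and 8.78 FPKM in control, 14, 13.9 and 10.7 in clone 2 and 18.1, 21.8 and 17 in clone 3 (log2 change 0.85 ± 0.21, adjusted p = 0.0174), and Zfp553 at 5.86, 5.27 and 4.44 FPKM in control, 4.34, 6.31 and 5.22 in clone 2 and 8.44, 9.82 and 9.49 in clone 3 (log2 change 0.73 ± 0.17, adjusted p = 0.0156). In both, the 3 clone 3 libraries are the highest of the 9. Zfp414, with 6.53, 15.6 and 14.4 FPKM in control, 16.5, 12.8 and 17.2 in clone 2 and 22.4, 21.4 and 21.4 in clone 3 (log2 change 0.87 ± 0.27, adjusted p = 0.0485), rests on a low control NTC library and a call close to the threshold, which 12 of the alternatives end. Zfp358, with 5.12, 5.25 and 7.0 FPKM in control, 8.69, 10.8 and 8.87 in clone 2 and 9.29, 10.1 and 8.88 in clone 3 (log2 change 0.63 ± 0.17, adjusted p = 0.0256), was as high in clone 2 as in clone 3. Without clone 3 replicate 2 only 1 member and without clone 3 replicate 3 only 2 members were called higher, beside 67 and 65 lower. The background of these 2 fits over all tested genes is not given here.

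After correction of each library for transcript length and GC content, 31 members were lower and 6 higher in clone 3 than in control, against a background of 4.89% and 3.37% of 10492 genes with a transcript. That is 12.8% and 2.47% of members, and their median became −0.10 (all genes 0.02), with 164 members below 0. The correction does not remove the limit from the 47 members that met the threshold without clone 3. The share of members that was lower is therefore not read as a result here either. Of the 85 members lower before correction 26 remained lower, 56 were no longer called and 3 were called higher. Of the 5 called higher before it 0 were called. KRAB-like members had 18 lower and 2 higher (median −0.12), and the others 13 lower and 4 higher (median −0.09). The correlation with GC content was 0.016 after the correction, which is what it removes by construction.

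Among the 26 members lower in both fits, Zfp948 had the furthest corrected change (−2.29 ± 0.23, adjusted p = 0.000923). Zfp488 and Zfp146 kept their size, at −1.69 ± 0.18, adjusted p = 0.00115 and −1.12 ± 0.25, adjusted p = 0.0257. Zfp445 stood at −1.38 ± 0.12, adjusted p = 0.000438, Zfp809 at −0.82 ± 0.21, adjusted p = 0.0418 and Zfp281 at −0.74 ± 0.14, adjusted p = 0.0124. Of the 8 with the lowest uncorrected changes all kept a call: Zfp62 at −1.48 ± 0.36, adjusted p = 0.0344, Zfp292 at −1.43 ± 0.14, adjusted p = 0.000746, Zfp386 at −1.41 ± 0.22, adjusted p = 0.00564, Zfp51 at −1.27 ± 0.14, adjusted p = 0.00157, Zfp930 at −1.19 ± 0.25, adjusted p = 0.0183, Zfp81 at −0.94 ± 0.17, adjusted p = 0.0119 and Zfp942 at −0.79 ± 0.14, adjusted p = 0.0106. Zfp148 and Zfp451 did not, at −0.36 ± 0.19, adjusted p = 0.278 and −0.04 ± 0.21, adjusted p = 0.929. Zfp292, Zfp386, Zfp51, Zfp930 and Zfp942 are among the 47 members that met the threshold without clone 3, and their corrected calls carry that limit. It holds also for Zfp948, Zfp62 and Zfp81, which reached 1 FPKM in only 1 clone 3 library. A further 3 members, all of very low GC content and named after their values were seen, were lower before and higher after the correction. Zfp931 (GC content 34.4%) held 1.38, 1.25 and 1.64 FPKM in control, 0.828, 1.08 and 1.66 in clone 2 and 0.268, 0.243 and 0.132 in clone 3, log2 change −1.0 ± 0.17, adjusted p = 0.00332 before and 1.10 ± 0.21, adjusted p = 0.0138 after. Zfp758 (35.4%) moved from −1.18 to 0.73 and Zfp654 (36.9%) from −1.13 to 0.59. The deposited FPKM of all 3 were lower in clone 3, by 6.64-fold, 13.1-fold and 6.18-fold of group means. At such levels, 2.10 FPKM or less, the added 1 limits how far a log2 value can fall. Zfp931 reached 1 FPKM in no clone 3 library and met the threshold through control and clone 2. The calls of all 3, before and after the correction, are given with that limit. Zfp706, a small protein that represses Klf4 in mouse embryonic stem cells, was not called before (log2 change 0.33 ± 0.18, adjusted p = 0.215) and was higher after (0.87 ± 0.22, adjusted p = 0.0398).

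**Figure D4:**
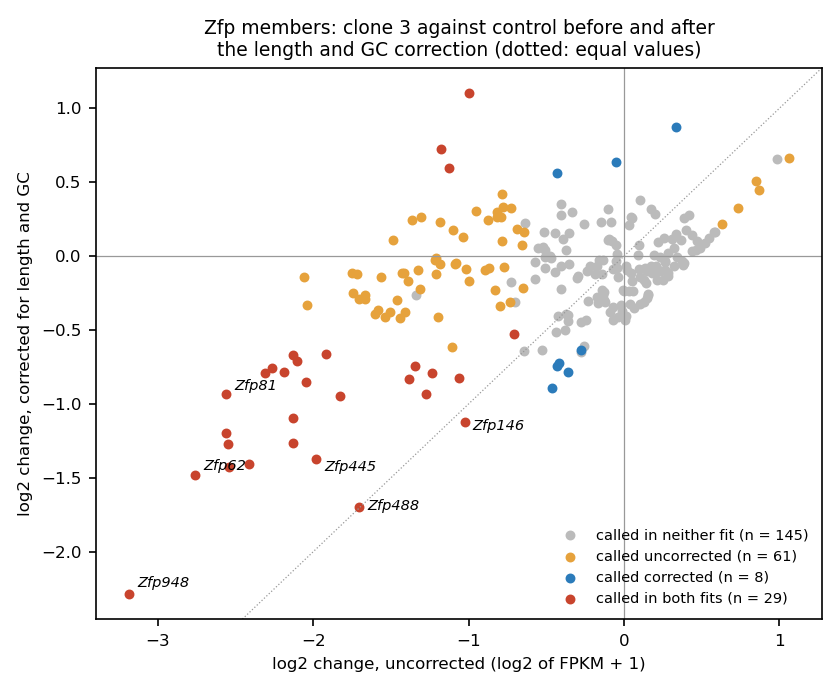
Log2 change of the 243 members between clone 3 and control before (horizontal axis) and after (vertical axis) the length and GC correction. Of the points called in both fits, 26 are lower in both and 3, above the horizontal line on the left, are lower before and higher after.

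Members that lie in runs of neighbours are given by run. In a run of 9 KRAB-like members at chr17:21423227-21994366 (GRCm38), from Zfp54 to Zfp943 and with Zfp51 and Zfp948 in it, all 9 were lower (median −1.66, range −3.18 to −1.30, GC content 37.1% to 40.7%). After correction 4 of them were lower, with a median of −0.42. At chr13:67121659-67755202, 6 of 8 KRAB-like members were lower before correction and 0 after, at a GC content of 38.7% to 44.8%. A run of 10 members at chr7:127233061-127885996, with Zfp553 and Zfp771, had 0 lower and 2 higher (median 0.30, all above 0, GC content 51.4% to 68.7%). By chromosome, 23 of 30 members on chromosome 17 and 12 of 18 on chromosome 13 were lower, beside 10 of 62 on chromosome 7, with median GC contents of 39.5%, 39.6% and 49.7%. Over all tested genes 13.2% were lower (4.89% after correction), and of the other genes in the lowest GC bin 50.9%. Some members counted here, such as Zfp51 and Zfp942, met the threshold without clone 3. A part of chromosome position was not tested. Near copies can share reads, and how the authors' counting split such reads is not given in the sources used here. Of the members 188 shared no stretch of 100 bases, the read length, with another gene, while 23 shared more than 10% of such stretches and 6 more than 50%. Values of those 23, among them Zfp414, Zfp931, Zfp932 and Zfp866, are uncertain in this respect. Of the 220 members at or below 10%, 74 were lower in clone 3.

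The most abundant members mostly did not pass the test in clone 3 against control. Of the 10 highest, Zfp146 alone was called in the fit without a block. In limma with the code as a block, Zfp207 and Zfp91 were also lower (adjusted p = 0.0256 and 0.0464), beside 16.7% of all tested genes. Zfp207 (BuGZ), a kinetochore protein that binds Bub3, was the highest, with 175, 84.8 and 95.3 FPKM in control, 133, 88.5 and 72.6 in clone 2 and 93.5, 72.8 and 62.3 in clone 3 (log2 change −0.57 ± 0.31, adjusted p = 0.205), and its titles overlap. Zfp598, a ubiquitin ligase that acts on collided ribosomes, held 67.3, 44.1 and 39.4 FPKM in control, 97.9, 75.3 and 46.7 in clone 2 and 83.3, 53.7 and 44.6 in clone 3 (log2 change 0.25 ± 0.32, adjusted p = 0.601). Zfp91, also a ubiquitin ligase, held 51.5, 41.4 and 37.7 FPKM in control, 58.5, 49.1 and 35.3 in clone 2 and 39.5, 30.4 and 27.2 in clone 3 (log2 change −0.42 ± 0.22, adjusted p = 0.199). The RNA-binding Zfp106 stood at 0.05, Zfp503 at −0.28, Zfp330 at −0.10, Zfp664 at −0.36 and Zfp740 at −0.13, none of them called.

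Of the 28 Zfp genes listed for a textbook role, 22 were members and 5 of these were lower in clone 3 than in control, all named above, and 0 higher. Among those not called, Zfp217, an oncogene of human breast cancer, held 7.83, 7.17 and 8.06 FPKM in control, 4.43, 7.26 and 8.45 in clone 2 and 7.99, 7.65 and 8.20 in clone 3 (log2 change 0.04 ± 0.20, adjusted p = 0.900), with nearly the same level in each title. Zfp703, amplified in human luminal breast cancer, held 5.04, 15.1 and 13.3 FPKM in control, 13.4, 17.2 and 18.9 in clone 2 and 12.7, 14.3 and 16.3 in clone 3 (log2 change 0.46 ± 0.33, adjusted p = 0.334). Zfp131, which carries a BTB domain, held 36.4, 14.5 and 15.2 FPKM in control, 29.4, 25.5 and 14.5 in clone 2 and 12.4, 7.67 and 3.97 in clone 3 (log2 change −1.34 ± 0.43, adjusted p = 0.0519), a wide spread within titles in which the NTC library is always highest. Zfp687 and Zfp592, which form a complex with Zmynd8, stood at 0.98 (adjusted p = 0.0558) and 0.38. The remaining listed members not called stood between −0.57 for Zfp207 and 0.58 for Zfp593, a factor of ribosome assembly. In limma with the code as a block, Zfp131 was lower (adjusted p = 0.00148) and Zfp687 higher (adjusted p = 0.0167). In that fit 16.7% of all tested genes were lower and 14.2% higher.

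Between clone 3 and clone 2, both of which overexpress miR-204-5p, 81 members were lower and 6 higher, beside a background of 12.8% lower and 6.03% higher. The comparison shares the clone 3 libraries with the one above, and the limit from the 47 members that met the threshold without clone 3 holds here too. The median was −0.27 over members and 0.04 over all tested genes, and 59 KRAB-like members and 22 others were lower. Zfp62 (log2 change −3.09 ± 0.41, adjusted p = 0.000905), Zfp948 (log2 change −2.96 ± 0.29, adjusted p = 0.000271), Zfp51 (log2 change −2.56 ± 0.18, adjusted p = 8.5e-05), Zfp930, Zfp81, Zfp292, Zfp932 and Zfp386 had the lowest changes, from −3.09 to −2.21. Zfp131 (log2 change −1.48 ± 0.43, adjusted p = 0.0388) and Zfp462 (log2 change −0.64 ± 0.19, adjusted p = 0.0432) were also lower here. Both lose the call without any 1 of clone 2 replicate 1, clone 2 replicate 2, clone 3 replicate 2 or clone 3 replicate 3 (adjusted p 0.105 to 0.169 for Zfp462 and 0.116 to 0.151 for Zfp131), and Zfp462 also without clone 2 replicate 3, control replicate 2 or control replicate 3. The counts lean on the same 4 libraries. Without clone 3 replicate 2 there were 57 members lower and 0 higher, without clone 3 replicate 3 there were 55 and 0, without clone 2 replicate 1 there were 63 and 1, and without clone 2 replicate 2 there were 62 and 1. Shares of all tested genes in these fits are not given here, so the drop is not read as particular to members.

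In 3 of the 6 members that were higher than in clone 2, the control libraries also all lay above those of clone 2. Zfp87 held 2.49, 2.54 and 2.21 FPKM in control, 1.58, 1.66 and 1.76 in clone 2 and 2.65, 2.81 and 2.50 in clone 3 (log2 change 0.46 ± 0.14, adjusted p = 0.0453), Zfp866 held 2.53, 2.68 and 3.07 FPKM in control, 1.87, 1.78 and 1.63 in clone 2 and 3.81, 2.91 and 3.01 in clone 3 (log2 change 0.62 ± 0.15, adjusted p = 0.0208) and Zfp41 held 1.76, 2.31 and 2.74 FPKM in control, 1.0, 1.44 and 1.73 in clone 2 and 2.58, 2.74 and 2.88 in clone 3 (log2 change 0.65 ± 0.18, adjusted p = 0.0290). In all 3 clone 2 lies below clone 3 in every library, and the change between clone 3 and control was 0.10, 0.17 and 0.20, not called. The other 3 were Zfp64, a regulator of transcription (log2 change 0.65 ± 0.19, adjusted p = 0.0373), Zfp574 (log2 change 0.68 ± 0.19, adjusted p = 0.0311) and Zfp553 (log2 change 0.71 ± 0.17, adjusted p = 0.0189). After the length and GC correction 21 members were lower and 12 higher, with a background of 4.38% and 4.13%. The limit from the 47 members that met the threshold without clone 3 remains after it. Zfp87, Zfp866 and Zfp41 kept their calls (0.70, 0.75 and 0.90), while the other 3 did not.

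Between clone 2 and control 0 members were called, and the background was 0% of all tested genes in either direction. At an unadjusted p below 0.05 there were 23 of 243 members, beside 949 of 10783 tested genes. The smallest adjusted p was 0.358 and changes ran from −0.63 to 0.73. KRAB-like members had a median of −0.16 with 98 of 118 below 0, and the others a median of 0.02 with 60 of 125 below 0, beside 46.2% of all tested genes below 0. Of the members called in clone 3, Zfp580 (log2 change 0.73 ± 0.20, adjusted p = 0.372) and Zfp358 (log2 change 0.63 ± 0.17, adjusted p = 0.358) had the highest values here, neither past the threshold.

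For the codes, each compared with NTC over 3 titles, 0 members were called in the fit without a block. The background in that fit was 0.139% of tested genes for C-26 and 0.0185% for C-20 in either direction. An unadjusted p below 0.05 was held by 27 and 11 of 243 members, beside 1794 and 834 of 10783 tested genes. With the title as a block, 19 members were lower and 2 higher in C-26 than in NTC, where the background was 7.36% lower and 6.75% higher. These are 7.82% and 0.823% of members, so the share that was lower lay near the background. In C-20 with the block 0 members were called (background 0.306%, smallest adjusted p 0.0665). There, 39 of 243 members had an unadjusted p below 0.05, beside 2259 of 10783 tested genes. In the authors' deposited table of code comparisons 0 members, and 0 of its 13414 genes, had a Benjamini-Hochberg p below 0.05 in either. A raw p below 0.05 was given for 12 (C-26) and 7 (C-20) of 243 members, beside 1189 and 569 of all its genes.

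Of the 19 members lower in C-26, 15 were without the KRAB-like pattern (12% of 125) and 4 with it (3.39% of 118), beside the background of 7.36%. The difference between these shares was not tested, and the members are given by their values. Zfp131 held 36.4 and 15.2 FPKM in the NTC and C-26 libraries of control, 29.4 and 14.5 in clone 2 and 12.4 and 3.97 in clone 3 (log2 change −1.20 ± 0.21, adjusted p = 0.0124). Zfp598 went from 67.3 to 39.4 in control, from 97.9 to 46.7 in clone 2 and from 83.3 to 44.6 FPKM in clone 3 (log2 change −0.90 ± 0.15, adjusted p = 0.0107). The direction is the same in each title, and C-20 lies between. Zfp207 held 175 and 95.3, 133 and 72.6, and 93.5 and 62.3 FPKM in the same order (log2 change −0.77 ± 0.16, adjusted p = 0.0201). Zfp622 and Zfp593, both factors of the maturing large ribosomal subunit, stood at log2 change −0.88 ± 0.23, adjusted p = 0.0374 and log2 change −0.79 ± 0.22, adjusted p = 0.0418. The largest difference of Zfp622 is in control and that of Zfp593 in clone 2, and both have the same direction in each title. Zfp346 (JAZ), which binds double-stranded RNA, stood at log2 change −0.95 ± 0.16, adjusted p = 0.0114, Zfp62 at log2 change −1.05 ± 0.19, adjusted p = 0.0142, Zfp68 at log2 change −0.90 ± 0.18, adjusted p = 0.0160, Zfp959 at log2 change −0.90 ± 0.19, adjusted p = 0.0204 and Zfp184 at log2 change −0.87 ± 0.16, adjusted p = 0.0141. Zfp259 (Zpr1), a partner of the SMN protein, stood at log2 change −0.63 ± 0.16, adjusted p = 0.0313, Zfp91 at log2 change −0.56 ± 0.14, adjusted p = 0.0325, Zfp664 at log2 change −0.72 ± 0.14, adjusted p = 0.0160 and Zfp146 at log2 change −0.68 ± 0.15, adjusted p = 0.0239. The 2 higher members were Zfp324, with 0.482 and 1.65, 0.407 and 1.38, and 1.29 and 2.46 FPKM (log2 change 0.73 ± 0.17, adjusted p = 0.0246), and Zfp395 (log2 change 0.67 ± 0.18, adjusted p = 0.0374). These counts could fall when libraries were left out. There were 0 members called without clone 2 replicate 3 and 1 without clone 2 replicate 1. Without control replicate 3 there were 8, and without clone 3 replicate 2 there were 9. With all libraries titled clone 3 left out, 0 were called. The share of all tested genes in these fits is not given here, so the drop is not read as particular to members.

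**Figure D5:**
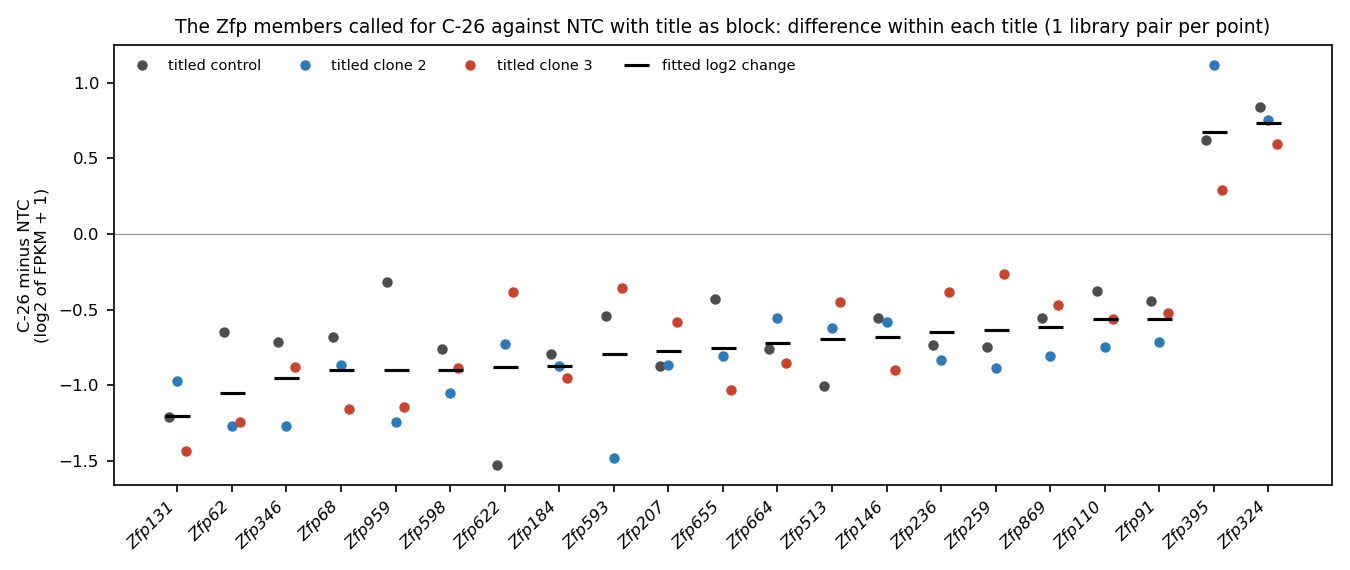
Difference of log2(FPKM + 1) between the C-26 and the NTC library of each title (points, 1 pair of libraries each) for the 21 members called with the title as a block, with the fitted change as a bar. All 3 points of each member share a sign, with 19 members below 0 and 2 above.

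Sites for miR-204-5p were found in a minority of the members. The 8mer AAAGGGAA, which pairs with the seed and ends in an A, occurred in the longest 3′ UTR (GENCODE M21) of 20 of the 242 members with one, and the 7mer AAAGGGA without that last A in 31 more. That is 8.26% of members (median 3′ UTR 1438 bases), beside 6.66% of 10402 tested genes with a 3′ UTR (median 1188 bases). Of the 20 members 8 were lower in clone 3 than in control (median −0.27), of the 31 members 11 (median −0.10) and of the 191 without a match 66 (median −0.36). After the length and GC correction 1, 3 and 27 were lower. Over all tested genes 13.2% were lower before the correction and 4.89% after it. Median transcript GC content was 45.1%, 48.2% and 46.2% in the same order. The limit from the 47 members that met the threshold without clone 3 holds for these counts, and a part of the sites was not tested. Sites were searched on the transcript strand only, and a match is a description of sequence.

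Partners of KRAB-mediated silencing were taken as a list of 23 corepressors, chromatin enzymes and HUSH components. Of these, 22 were found by symbol in the deposited table, and all 22 passed the threshold. Fam208a was not found under that symbol, so its level is not known here. Of the 22, 5 were lower and 3 higher in clone 3 than in control (median 0.04). These are 22.7% and 13.6% of the 22, beside 13.2% and 7.44% of all tested genes. Trim28, the KRAB corepressor, held 124, 131 and 100.4 FPKM in control, 87.3, 90.5 and 107 in clone 2 and 155, 183 and 183 in clone 3 (log2 change 0.55 ± 0.16, adjusted p = 0.0380). All clone 3 libraries are above all others. Setdb1 was not called (log2 change 0.08 ± 0.16, adjusted p = 0.756). Mphosph8, the chromatin reader of the HUSH silencing complex, held 16, 15.3 and 15.6 FPKM in control, 17.3, 13.3 and 12 in clone 2 and 4.08, 2.70 and 1.66 in clone 3 (log2 change −2.17 ± 0.23, adjusted p = 0.000268). The remodeller Smarcad1 (log2 change −2.02 ± 0.27, adjusted p = 0.000747), the heterochromatin proteins Cbx3 (log2 change −1.32 ± 0.19, adjusted p = 0.00117) and Cbx1 (log2 change −0.91 ± 0.28, adjusted p = 0.0471) and Hdac2 (log2 change −0.64 ± 0.18, adjusted p = 0.0324) were lower too, and Chd3 and Ehmt2 were higher. The call of Cbx1 lies close to the threshold, and its control libraries held 92.9, 42.1 and 47.6 FPKM. After the length and GC correction Mphosph8 (−1.57 ± 0.17, adjusted p = 0.00116) and Smarcad1 (−1.11 ± 0.24, adjusted p = 0.0215) were still lower and 0 of the list were higher. Of other C2H2 families in clone 3 against control, 5 of 35 Zbtb genes were lower and 1 higher (median −0.06), 2 of 8 Zkscan (−0.37), 1 of 8 Zscan (−0.14), 5 of 11 Klf (−0.71, 1 higher) and 2 of 8 Sp genes (−0.48) were lower. The shares of Zbtb (14.3%) and Zscan (12.5%) lay near the background of 13.2%, and those of Zkscan and Sp were 25% and that of Klf 45.5%.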

How the data were processed

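RNA of 9 libraries was sequenced as paired reads of 100 bases from a polyA-selected TruSeq library, per the labels' protocols. Per the submitters' processing notes, TopHat2 2.0.13, Bowtie2 2.2.3 and Cufflinks 2.2.1 were used with mm10. The authors' deposited gene table holds FPKM of 24067 genes, and the members' FPKM in the deposited comparison table equal it. That table also holds the authors' log2 values after normalization between libraries, a signed fold score and raw and adjusted p-values per code comparison, per the file headers. Only its p-values and signs were used, as the authors' own. Read counts are not analysed here, so depth and counting error are unknown.

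Genes at 1 FPKM or more in at least 3 libraries (10783) were fitted as log2(FPKM + 1) in limma 3.58.1 (R 4.3.3) over all 9 libraries, with a mean-variance trend and Benjamini-Hochberg adjustment over all of them, two-sided, called below 0.05. Errors of log2 changes are standard errors. The log2(FPKM + 1) scale understates changes of low genes. The correction took natural splines (4 degrees of freedom) of GC content and log2 length of the longest coding transcript (GENCODE M21, matched for 243 members and 10492 tested genes) out of each library's deviation from the gene mean. Fingers, the KRAB-like pattern (first 300 residues) and 3′ UTRs were read from GENCODE M21, since no protein table was used here. Gene coordinates are RefSeq's on GRCm38.p6. Runs are at least 5 members with gaps of at most 250000 bases. Tables and figures used Python 3.11.15, numpy 2.4.6, pandas 2.3.3 and matplotlib 3.10.9, and the fit was tested on simulated data.

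The members and lists were chosen with earlier results of these data known. The text names the 10 most abundant members, per comparison the 8 highest and 8 lowest called, members listed for a textbook role and the 3 nearest the threshold on each side. Zfp488, Zfp654, Zfp758, Zfp931 and the C-26 members beyond these were named after their values were seen. Libraries of 1 title deviate together (correlations of deviations from code means 0.260 to 0.883), so code comparisons were also fitted with the title as a block.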

Additional observations from a re-analysis of the deposited data

How the results depend on the processing

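Members called in clone 3 against control (90) numbered 67 to 98 when single libraries were left out, and those in clone 3 against clone 2 (87) 55 to 102. Without clone 3 replicate 2 the latter count was 57 and without clone 3 replicate 3 it was 55. Counts over all tested genes are not given for fits with libraries left out, so changes in them are not read as particular to members. The length and GC correction left 37 and 33 calls, and with the replicate block 47 and 54. With correction and block, 727 of 10492 tested genes were higher and 887 lower than in control, and 939 higher and 913 lower than in clone 2. For C-26 against NTC, where 0 were called, the title as block gave 21, the correction 1 and both together 36, and for C-20 both together gave 1. Over all tested genes the block called 6.75% higher and 7.36% lower for C-26, and the correction 0.848% and 0.334%. Both together called 1004 of 10492 genes higher and 964 lower for C-26, and 77 and 50 for C-20. Leaving out libraries from the C-26 fit with the block, an alternative chosen after seeing the data, gave 0 to 21 calls: 8 without control replicate 3, 1 without clone 2 replicate 1, 0 without clone 2 replicate 3, 9 without clone 3 replicate 2 and 0 without the libraries titled clone 3. Zfp451 in clone 3 against clone 2 went from −1.01 to 0.18 after the correction, with and without the block. The cause of these changes was not tested, except that fits with fewer libraries have fewer degrees of freedom.

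The replicate number is the same as the code, whose meaning the labels do not give. Correlations of same-numbered libraries across titles ran from −0.235 to 0.562, and 2 of 9, both among C-20 libraries, were under 0.1. Pairs of NTC libraries stood at 0.481 to 0.548 and pairs of C-26 libraries at 0.266 to 0.562, so libraries of these 2 codes did deviate together. The main title fit has no block for the number, and differences between codes stay in its error. With the number as replicate block 105 and 98 members were called, 98 and 88 of them lower. Over all tested genes 16.7% and 17.3% were lower with this block, and 14.2% and 12.1% higher. In clone 3 against control this fit added, among members named, calls for Zfp687 (adjusted p 0.0167) and Zfp64 (0.0363), both higher, and Zfp131 (0.00148), Zfp207 (0.0256) and Zfp91 (0.0464), all lower. The 6 calls higher than in clone 2 became 1 without clone 2 replicate 1 or clone 2 replicate 2. Quantile scaling moved the median of all genes to 0.12 and 0.11, and the member median in clone 3 against control to −0.16 (72 lower, 11 higher). With that scaling 1339 of 10783 tested genes were lower and 829 higher. A pseudocount of 0.1, median ratio scaling, no filter and fits of only the groups compared gave 80 to 94 and 70 to 93 calls. Over all genes of these fits (10783, or 20025 without a filter), 1139 to 1457 were lower and 407 to 835 higher than in control. Against clone 2, 1131 to 1645 were lower and 388 to 1236 higher. FPKM without counts leaves the precision of low members unknown.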
